A study of Mus musculus with 8 samples.

Results

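Distal anchors are the ends of Hi-ChIP loops that lay more than 100 kb from every annotated start of a protein-coding gene. Hi-ChIP captures contacts between separate genomic fragments at sites bound by a chosen protein. Each end of a listed contact, or loop, is an interval called an anchor. Of the 30542 distinct anchors in 4 loop lists, 2706 (8.86%) were distal by this rule, which used the edge of the anchor nearest to a start in GENCODE release M21. A further 11729 anchors had a protein-coding start within 2 kb and are called promoter anchors, and the remaining 16107 lay 2 to 100 kb from the nearest start.

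The lists covered 8 samples of mouse pancreatic cancer cells from the KPC model, a genetically engineered mouse model of pancreatic cancer. FOXA1 and HNF4G were each immunoprecipitated from a tumor line and from a liver metastasis (liver mets) line, with 2 replicates per group. All samples were labelled as wild-type in genotype and untreated, and were grown in DMEM with serum. Each tissue was represented by 1 cell line, so tissue and line cannot be told apart. One list was deposited per group for both replicates, so no spread between replicates was available, and the 95% intervals given here cover counting error only. The lists held between 76323 and 125623 loops, the FOXA1 lists being the longer ones. Where 4 values follow each other, one per list, FOXA1 comes before HNF4G and, within each factor, liver mets before tumor. Contacts present in fewer cells and contacts that are weaker in each cell cannot be told apart in such lists, and the labelled cell type was not checked because no expression was measured in these samples.

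Regulatory elements such as enhancers can lie far from the genes they act on, and folding of the chromatin fiber brings them near promoters. Genes of developmental regulators often border long stretches without other genes, called gene deserts, that hold many such elements. FOXA1 is a forkhead factor that opens chromatin in endoderm-derived tissue, and HNF4G is a nuclear receptor of gut and pancreas epithelium. The gene nearest to an element is often taken as its target, and loop data allow this to be compared with the contacts themselves.

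Sequence of the 4 distal anchors with the most loops is shown so that the sites behind the values can be read. Each line holds 200 bases of the plus strand of GRCm38 (mm10), chosen as the window with the most matches to 4 short motifs, on either strand. These were TGTTTAC (forkhead), CAAAGTCCA (HNF4), TGACTCA (AP-1) and AGNNGGCAG (part of the CTCF motif). Capitals mark the matches, which are matches of letters and were not measured as bound sites.
chr6:31073411-31073610, nearest gene Klf14: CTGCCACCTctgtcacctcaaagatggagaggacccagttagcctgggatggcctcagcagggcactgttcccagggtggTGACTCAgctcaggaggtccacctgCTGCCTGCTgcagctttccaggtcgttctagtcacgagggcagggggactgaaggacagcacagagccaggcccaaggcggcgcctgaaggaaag
chr8:126828042-126828241, nearest gene Tomm20: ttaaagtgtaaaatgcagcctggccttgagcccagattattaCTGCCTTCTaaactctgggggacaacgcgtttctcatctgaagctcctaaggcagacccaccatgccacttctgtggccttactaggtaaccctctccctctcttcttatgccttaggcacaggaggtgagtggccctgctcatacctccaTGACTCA
chr8:126735379-126735578, nearest gene Irf2bp2: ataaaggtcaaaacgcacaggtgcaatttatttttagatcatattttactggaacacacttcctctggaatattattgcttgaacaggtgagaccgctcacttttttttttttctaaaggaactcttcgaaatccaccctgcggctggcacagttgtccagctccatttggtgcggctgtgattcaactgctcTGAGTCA
chr8:126764539-126764738, nearest gene Irf2bp2: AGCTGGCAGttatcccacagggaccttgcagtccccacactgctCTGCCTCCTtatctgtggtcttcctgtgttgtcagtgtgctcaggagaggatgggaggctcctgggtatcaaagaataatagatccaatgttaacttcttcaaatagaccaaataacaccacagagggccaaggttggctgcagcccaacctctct
The window near Klf14 held 1 AP-1 match and 2 CTCF-part matches. The window nearest to Tomm20 held 1 match of each of these, the window at chr8:126735379-126735578 held 1 AP-1 match, and the last held 2 CTCF-part matches. No forkhead or HNF4 match fell in these windows, which are parts of longer anchors. The whole anchors at chr6:31073344-31084753 and chr8:126732313-126738466 held 1 forkhead match each, and the others held none.

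Distal anchors were spread unevenly over the gaps between genes. Their distance to the nearest protein-coding start had a median of 176 kb, with quartiles of 129 and 259 kb and a maximum of 1395 kb. There were 1105 beyond 200 kb and 171 beyond 500 kb. They occupied 746 gaps between neighbouring protein-coding starts, 272 of which held a single distal anchor. At the other end, 60 gaps held 10 or more each and together held 820 distal anchors (30.3%). The gap between Sox9, a regulator of pancreatic progenitor and ductal cells, and Slc39a11 held the most, 28 anchors in 784 kb. The gap between Myc, a driver of proliferation, and Gsdmc held 24, and that between Klf4, a regulator of epithelial differentiation, and Gm26657 held 21. The anchors just inside the limit lay 100.03 kb (nearest Klf7) and 100.06 kb (nearest Med13l) from a start and carried 22 and 42 loops over the 4 lists. The anchors just outside lay 99.996 kb (nearest Speer4f2) and 99.95 kb (nearest Gm15217) from a start and carried 13 and 14.

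The distal anchors between Sox9 and Slc39a11 carried 476 and 359 loop ends with FOXA1 and 303 and 286 with HNF4G. Those between Myc and Gsdmc carried 383 and 224, and 166 and 112. FOXA1 liver mets was the highest in both gaps, and HNF4G tumor the lowest. The gap from Irf2bp2, a transcriptional corepressor, to Tomm20, a subunit of the mitochondrial import receptor, was different in its HNF4G order. Its 16 distal anchors carried 383, 259, 219 and 240 loop ends, so that HNF4G tumor was above HNF4G liver mets. A loop with both ends in a gap was counted at each end.

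**Figure D1:**
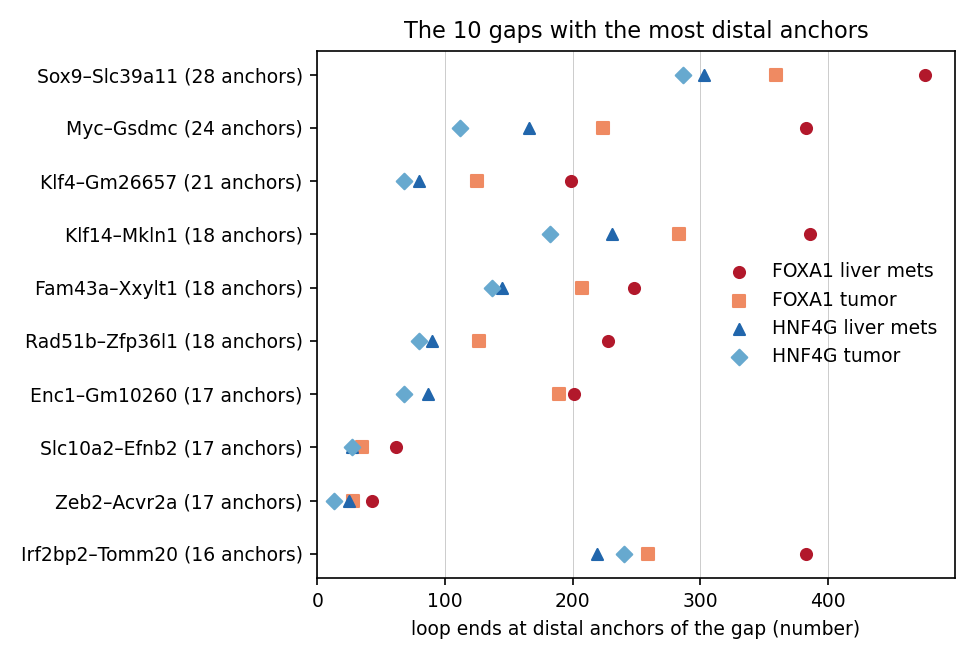
Number of loop ends at distal anchors (x axis) in each of the 10 gaps between protein-coding starts with the most distal anchors (y axis), with 1 point per loop list. FOXA1 liver mets is the highest point in all 10 gaps, and the Sox9 gap reaches 476 loop ends.

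Most distal anchors lay outside genes. Of the 2706, 2293 (84.7%) overlapped no protein-coding gene, against 49.4% of anchors 2 to 100 kb from starts. The remaining 413 lay inside genes whose starts were far away, most often Rad51b with 12 anchors, Macrod2 with 10, and Magi1 and Ptprt with 9 each. A long noncoding RNA gene overlapped 598 distal anchors (22.1%, interval 20.6 to 23.7), against 11.8% (11.4 to 12.4) of anchors 2 to 100 kb from starts. A start of such a gene lay within 2 kb of 188 (6.95%).

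The sequence of distal anchors was poorer in G and C than that of other anchors, with a median GC content of 43.3%, against 46.5% in anchors 2 to 100 kb from starts and 52.2% in promoter anchors. The forkhead letters occurred in the middle 1 kb of 27.0% of distal anchors (interval 25.3 to 28.7), 23.1% of anchors 2 to 100 kb from starts and 13.6% of promoter anchors. The AP-1 letters occurred in 44.3% (42.5 to 46.2), 39.2% and 17.6%. The CTCF-part letters were less frequent in distal anchors, at 25.3% against 30.6% and 31.6%, and the longer HNF4 letters were rare in all classes, at 2.18%, 1.89% and 1.45%. These letters occurred in 19.8% (forkhead), 31.3% (AP-1), 30.5% (CTCF part) and 1.75% (HNF4) of all anchors. GC content moved with the shares. Between 35 and 40% GC, forkhead letters were in 28.8% of distal anchors and 31.4% of anchors 2 to 100 kb from starts. Among anchors of 40 to 45% GC, forkhead letters were in 29.99% (27.4 to 32.7) of distal anchors and 27.0% (25.8 to 28.3) of anchors 2 to 100 kb from starts, and CTCF-part letters in 24.5% and 24.2%. Between 45 and 50% GC the forkhead shares were 22.8% and 23.1%. Between 50 and 55% GC, a range with 154 distal anchors, they were 22.1% (16.3 to 29.3) and 15.8% (14.5 to 17.1). The AP-1 share was 51.5% (47.3 to 55.7) against 44.4% (41.4 to 47.4) at 35 to 40% GC, where the intervals barely overlapped. It was 45.7% against 44.0% at 40 to 45% GC, 40.8% against 38.5% at 45 to 50% and 29.9% against 34.1% at 50 to 55%. The intervals overlapped in these ranges too, and the differences within GC ranges were not tested.

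Distal anchors were used in fewer of the lists than other anchors. All 4 lists used 1762 of them (65.1%, interval 63.3 to 66.9), against 81.9% of anchors 2 to 100 kb from starts and 84.4% of promoter anchors. The FOXA1 lists used 2536 (liver mets) and 2442 (tumor), whereas the HNF4G lists used 2188 and 2100. Only the FOXA1 lists used 255 (9.42%), against 3.16% of all other anchors, and only the HNF4G lists used 56 (2.07%), against 0.650%. The median number of loops per distal anchor was 5 in FOXA1 liver mets, 4 in FOXA1 tumor and 2 in each HNF4G list.

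Loops with at least 1 distal anchor numbered 13977 (11.1% of the list) and 10537 (10.1%) with FOXA1, and 7025 (9.0%) and 6229 (8.16%) with HNF4G, liver mets being the first of each pair. The 4 lists combined held 25675 distinct ones. Of these, 6105 (23.8%, interval 23.3 to 24.3) ended at a promoter anchor. Another 13573 (52.9%) ended at an anchor 2 to 100 kb from a start, and 5997 (23.4%) joined distal anchors to each other. By list, the promoter share was 22.1%, 22.8%, 22.1% and 24.8%, with HNF4G tumor the highest.

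**Figure D2:**
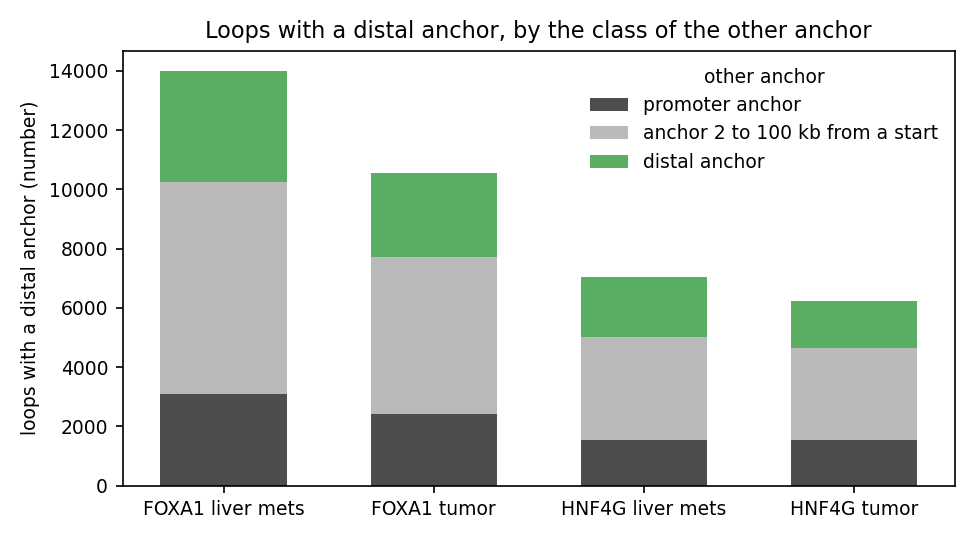
Number of loops with a distal anchor (y axis) in each loop list (x axis), stacked by the class of the anchor at the other end. The bars reach 13977, 10537, 7025 and 6229 loops, and the promoter part, from 3087 loops down to 1543, is the smallest in each.

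The loops of distal anchors were long. Their median span, measured between anchor midpoints, was 236 kb (liver mets) and 212 kb (tumor) with FOXA1 and 182 and 196 kb with HNF4G, against 154, 133, 107 and 125 kb for the other loops of the same lists. A loop from a distal anchor to a promoter must span about 100 kb or more, and the shortest spanned 99.1 kb. The median of these was 389, 366, 318 and 315 kb. Loops between distal anchors had no such floor, and their medians were 79.0, 67.3, 53.7 and 54.6 kb.

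Pairs of anchors were compared at matched span, since long loops are rarer. Of the 793 pairs of a distal anchor and a promoter anchor 100 to 150 kb apart, the FOXA1 lists held 43.1% (liver mets) and 34.0% (tumor), and the HNF4G lists 26.9% and 27.7%. Promoter anchors paired with anchors 2 to 100 kb from starts were listed less often in this range, at 28.2%, 23.9%, 18.1% and 17.7%. Over 100 to 2000 kb, the odds that a pair was listed were 1.45 (interval 1.39 to 1.51), 1.45 (1.38 to 1.51), 1.35 (1.28 to 1.43) and 1.23 (1.17 to 1.3) times as high for distal-promoter pairs, as Mantel-Haenszel odds ratios over span ranges. Against pairs of promoter anchors, the odds ratios were 1.28 (1.23 to 1.34) and 1.20 (1.15 to 1.26) with FOXA1, but with HNF4G 1.04 (0.985 to 1.10) for liver mets and 0.871 (0.824 to 0.921) for tumor, where distal-promoter pairs were listed less often. Against pairs of distal anchors the order of the lists ran the other way. The odds ratio was lowest with FOXA1, at 0.898 (0.837 to 0.963) for liver mets and 1.13 (1.04 to 1.22) for tumor, and was 1.3 (1.17 to 1.43) and 1.71 (1.53 to 1.90) with HNF4G. When only anchors used in the list were paired, the odds ratios against promoter anchors paired with anchors 2 to 100 kb from starts were 1.51, 1.54, 1.52 and 1.42. Against pairs of promoter anchors they were then 1.34, 1.29, 1.21 and 1.03. The last, for HNF4G tumor, had an interval of 0.971 to 1.09, so the lower listing there was not seen among used anchors. Against pairs of distal anchors they were 0.904, 1.12, 1.25 and 1.59. Relative to pairs of distal anchors, distal-promoter pairs were thus listed more often in the HNF4G lists and less often in FOXA1 liver mets.

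Few of these loops were shared by all lists, and sharing depended on span. All 4 lists held 893 of the 25675 distal-anchor loops (3.48%), against 5.49% of other loops. Below 20 kb the shares were 20.8% and 30.6%. Between 100 and 150 kb they were 4.85% and 3.89%, and between 200 and 300 kb 2.94% and 1.26%, so distal-anchor loops were shared more often there.

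Each loop carried a deposited value, read here as the −log10 of an adjusted p, which was 20 at most. At matched span, the odds of a value of 2 or more were 1.59 times as high for distal-anchor loops as for other loops with FOXA1 in liver mets (interval 1.51 to 1.68) and 1.43 times in tumor (1.34 to 1.53). With HNF4G the ratios were smaller, at 1.18 in liver mets (1.08 to 1.29) and 1.09 in tumor, where the interval of 0.995 to 1.20 included 1. Among distal-anchor loops, those that ended at a promoter had the higher odds, with ratios of 1.36 (1.22 to 1.52), 1.77 (1.55 to 2.03), 1.97 (1.65 to 2.35) and 1.97 (1.64 to 2.37).

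Promoter loops of distal anchors mostly passed over or turned away from the nearest gene. A loop was said to skip the nearest gene when its promoter anchor held no start of the protein-coding gene closest to the distal anchor. Of the 6105 distinct promoter loops, 4663 did so (76.4%, interval 75.3 to 77.4). The share was 70.3% (liver mets) and 69.7% (tumor) with FOXA1, and 64.6% and 65.3% with HNF4G. It was thus lower with HNF4G, by 5.73 percentage points in liver mets (2.87 to 8.61) and by 4.4 in tumor (1.41 to 7.41). The promoter loops of the HNF4G lists were also shorter, and the part of span in this difference was not tested. Between liver mets and tumor it differed by 0.636 points for FOXA1 (-1.80 to 3.09) and by -0.697 for HNF4G (-4.05 to 2.66), and both intervals included 0.

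The skipped gene stood between the anchors in 2133 of the 4663 loops (45.7%) and did not stand between them in 2530 (54.3%). Not all nearest genes could be reached, because 1899 of the 2706 distal anchors (70.2%) had a nearest gene with any promoter anchor. For loops of these the share that skipped was 70.1% (68.8 to 71.4). The number of other protein-coding genes with a start between the anchors had a median of 1 and a maximum of 72, and it was 0 for 2279 loops (37.3%). The share that skipped depended on the value. Where the value reached 2, it was 49.2% of distinct loops, and 48.1%, 45.1%, 40.4% and 44.9% in the 4 lists. Such loops made up 20.5%, 19.4%, 17.2% and 16.5% of the promoter loops of distal anchors. Of the promoter loops of 1000 kb and more, between 1.92% and 3.08% per list had such a value. In the 203 promoter loops that all lists held, with a median span of 197 kb, 36.9% skipped the nearest gene (30.6 to 43.8). In the 4462 held by a single list, with a median span of 582 kb, 85.5% did (84.4 to 86.5).

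The nearest gene was nonetheless contacted more often than others in the same range of spans, within which spans could still differ. Pairs of a distal anchor and a promoter anchor of its nearest gene were listed in at least 1 list in 59.3% of cases between 200 and 300 kb (interval 55.4 to 63.1), against 40.5% (38.0 to 43.0) of pairs with other promoters. Between 500 and 750 kb the shares were 43.4% (35.3 to 51.8) and 16.9% (15.9 to 17.9). Over all ranges the odds ratio was 2.36 (2.11 to 2.64). In the single lists it was 2.51 (2.22 to 2.84), 2.14 (1.88 to 2.45), 2.18 (1.87 to 2.54) and 2.00 (1.72 to 2.33). Without the gaps of 10 or more distal anchors it was 1.8 (1.56 to 2.07). When starts of genes of every biotype were counted, which left 379 distal anchors, it was 1.59 over all lists. In the single lists it was then 1.37 (0.887 to 2.11) for liver mets and 1.08 (0.669 to 1.76) for tumor with FOXA1. With HNF4G it was 0.898 (0.506 to 1.59) for liver mets and 0.994 (0.569 to 1.74) for tumor. The interval of every single list included 1. No list alone thus showed more frequent contact with the nearest gene under this setting.

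**Figure D3:**
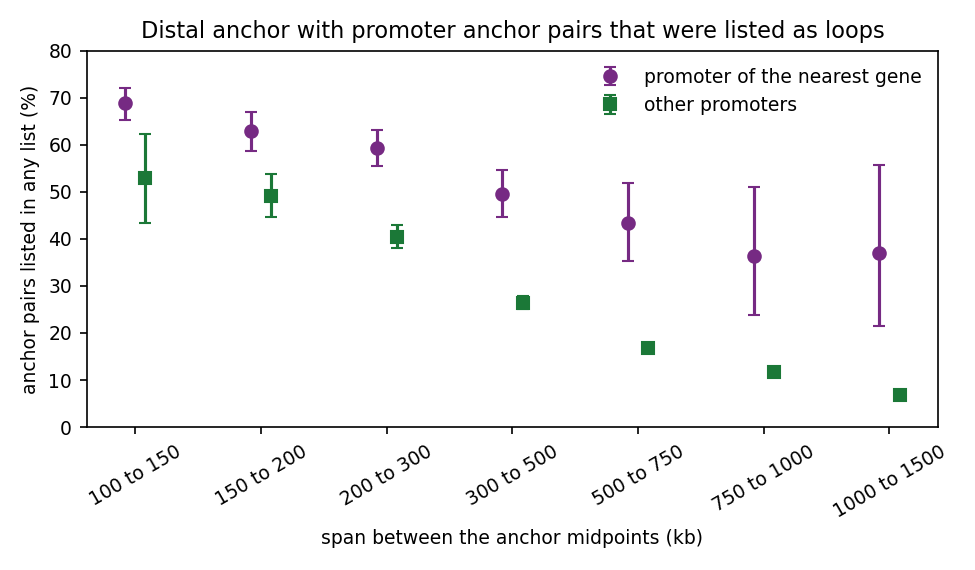
Percent of anchor pairs listed as a loop in any list (y axis), by span between midpoints in kb (x axis), for distal anchors paired with promoter anchors of their nearest gene (circles) or of other genes (squares), with Wilson 95% intervals. Circles lie above squares in every range drawn, at 59.3% and 40.5% between 200 and 300 kb. The 3 nearest-gene pairs of 1500 to 2000 kb, of which 0 were listed, are not drawn.

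Of the 2706 distal anchors, 2261 (83.6%) had at least 1 promoter loop, and 945 of these (41.8%) reached promoters on both sides. They met 2488 of the 11729 promoter anchors (21.2%) and 2409 of the 10802 protein-coding genes that had one (22.3%, interval 21.5 to 23.1). Most of the reached genes, 1984 (82.4%), were not the nearest gene of any distal anchor that reached them. Counts of distal anchors per list are given for the 8 genes met by the most.

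Myc was reached from 39 distal anchors over spans of 112 to 1572 kb, 30, 27, 21 and 18 by list. It was the nearest gene for 29 of them. Sox9 was reached from 27, with 19, 13, 12 and 16 by list, and the HNF4G order was the reverse of that of Myc. Fam43a, a gene of little known function, was reached from 20, with 18, 11, 12 and 15. Klf4 was reached from 19, with 12, 10, 7 and 8, and Klf6, a zinc-finger factor of the same family, from 19 with 16, 12, 6 and 4. Klf6 had the steepest fall from FOXA1 to HNF4G lists among these 8 genes. Hes1, a Notch target that restrains endocrine differentiation in the pancreas, was reached from 18, with 13, 11, 8 and 14. Hlx, a homeobox factor of gut mesenchyme, was reached from 18, with 10, 12, 10 and 5. Fam84b was reached from 19, with 7, 10, 5 and 8, but was the nearest gene for only 1, and with a value of 2 or more it was reached from 1. With the same minimum Myc was reached from 24, Sox9 from 15, Fam43a and Klf4 from 12, Hes1 from 10, Hlx from 9 and Klf6 from 7.

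The genes of 13 lists chosen for pancreatic cancer and for long-range regulation were reached to unequal degrees, and 11 lists were above the 22.3% of all genes. Of the transcription factors of pancreas and foregut, 12 of 18 with a promoter anchor were reached (66.7%), led by Sox9 and Hes1. Of the mesenchymal transition genes, 9 of 14 were reached, led by Fn1, which encodes fibronectin, from 13 distal anchors and Zeb2, a repressor of E-cadherin, from 6. All 6 Zeb2 contacts had values under 2. Of the axon guidance genes, 16 of 28 were reached, led by Sema4d from 12 distal anchors, none of them with a value of 2 or more, and by the ephrin gene Efna5 from 11. Cytosolic ribosomal proteins, which are made in all cells, were reached in 8 of 44 genes (18.2%), led by Rpl14 from 8 and by Rpl7 from 3, whose promoter anchor also holds a start of Rdh10.

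**Figure D4:**
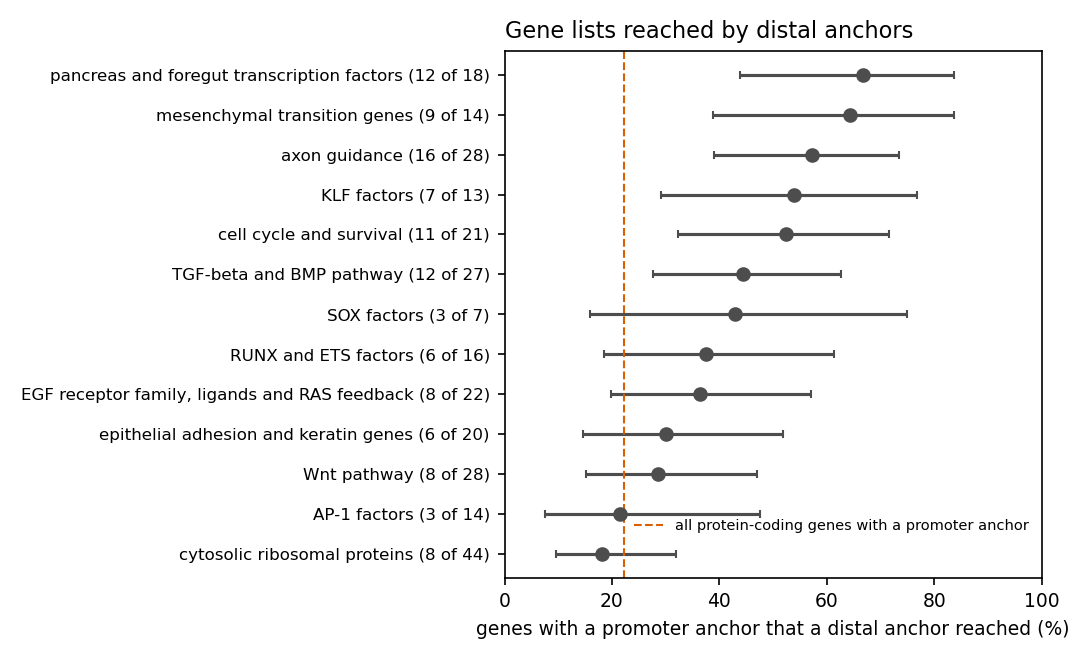
Percent of the genes with a promoter anchor that at least 1 distal anchor reached (x axis, with Wilson 95% intervals) for 13 gene lists (y axis, with counts). The dashed line is the 22.3% of all protein-coding genes with a promoter anchor, and 6 of the lists have intervals above it.

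Signaling and cell cycle genes lay between these. Of the TGF-beta and BMP pathway, 12 of 27 were reached, led by Inhba, which encodes an activin subunit, from 16 distal anchors and by its receptor gene Acvr2a from 6. Acvr2a was met from 5, 1, 2 and 0 by list, so its contacts were mostly in the liver mets lists. Of the EGF receptor family with its ligands and feedback inhibitors, 8 of 22 were reached, led by Dusp4, a MAP kinase phosphatase, from 14 and Spry1, a feedback inhibitor of receptor signaling, from 10. Of the Wnt pathway, 8 of 28 were reached, led by Tcf7l2 from 8 and Ctnnb1, which encodes beta-catenin, from 7. Of cell cycle and survival genes, 11 of 21 were reached, with the apoptosis gene Bcl2l11 following Myc with 11 anchors. The remaining transcription factor lists gave 7 of 13 KLF factors, 3 of 7 SOX factors with Sox4 second at 13 anchors, 6 of 16 RUNX and ETS factors with Runx1 and Runx2 at 11 each, and 3 of 14 AP-1 factors with Maf at 6 and Fosl2 at 3. Epithelial adhesion and keratin genes were reached in 6 of 20, by few anchors each, Dsp by 5 and Dsg2 by 1.

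The genes reached were also compared by whether a distal anchor was near. Of all 10802 genes with a promoter anchor, 19.5% had a distal anchor within 500 kb, and 68.6% of these (interval 66.6 to 70.5) were reached. Such genes made up 1446 of the 2409 reached genes, and the others were reached from farther away. The share with such a neighbour was 44.4% for pancreas and foregut factors, 57.1% for mesenchymal transition genes, 53.6% for axon guidance genes and 20.5% for ribosomal proteins. Of the genes with such a neighbour, all 8 of the pancreas and foregut factors, all 8 mesenchymal transition genes and all 15 axon guidance genes were reached, against 3 of 9 ribosomal protein genes.

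The anchors with the most loops had contacts well beyond the distance of the nearest gene. The anchor at chr6:31073344-31084753 lay 114 kb from Klf14, a zinc-finger factor gene, and overlapped the long noncoding gene Lncpint. It carried 52, 31, 31 and 27 loops, more in FOXA1 liver mets than elsewhere. None of its loops ended at Klf14. All 7 KLF factors with a promoter anchor and a distal anchor within 500 kb were reached, and Klf14 was not among them. Klf14 thus appears to have had no promoter anchor at which a loop could end. Its contact with Podxl, which encodes a cell-surface sialomucin, spanned 483 kb and had values of 11.04 (liver mets) and 5.92 (tumor) with FOXA1 and of 3.81 with HNF4G in liver mets, and was not in the HNF4G tumor list. The contact with Mkln1 at 320 kb, the next gene on that side, had values of 1.69 and 1.8 in the FOXA1 lists. The neighbouring anchor at chr6:31064455-31068485 carried 30, 31, 20 and 23 loops and likewise none to Klf14.

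The gap between Irf2bp2 and Tomm20 held 3 of the 5 distal anchors with the most loops. The anchor at chr8:126823641-126830882 lay 115 kb from Tomm20 and carried 44, 28, 28 and 30 loops. Its contact with Irf2bp2, on the far side at 234 kb, had values of 20, 12.3, 7.86 and 20, whereas that with Tomm20 at 118 kb had 0.689 with FOXA1 in liver mets and 1.46 and 1.37 with HNF4G. In each of the 3 lists with both contacts, the longer one had the higher value. The anchor at chr8:126732313-126738466 carried 41, 25, 24 and 27 loops and the anchor at chr8:126762503-126768559 carried 35, 26, 23 and 26. Irf2bp2 was the nearest gene of both and was contacted in all 4 lists. The sequence windows above come from 4 of these 5 anchors.

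Among promoter loops that all 4 lists held, the highest summed value belonged to a contact with Hes1. It joined chr16:29727924-29730937 to the Hes1 promoter over 338 kb, with values of 20, 20, 11.2 and 20, although Opa1, a mitochondrial fusion gene at 111 kb, was nearer. The following pair joined 2 distal anchors on chromosome 18 to Onecut2, a factor of pancreas and liver development, over 261 and 266 kb. Their values were 20, 20, 10.8 and 20, and 20, 20, 5.60 and 20, and the nearest gene was St8sia3. The HNF4G liver mets value was the lowest of the 4 in all of these loops. Of the skipping loops in all 4 lists, those that passed the most genes ended at Foxf2, a forkhead factor of gut mesenchyme. The Foxf2 loops spanned 440 and 420 kb and passed 2 genes, with values of 10.8, 3.53, 1.95 and 1.97 for the first and 3.39, 3.50, 5.99 and 3.66 for the other. A loop to Irs1, an adaptor of the insulin receptor, spanned 536 kb and passed 1 gene, as the Onecut2 loops did, being named next by position, with values of 1.85, 6.14, 1.99 and 1.98. The nearest genes of these, Gm5447 and Gm9747, are gene models known by number only.

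The liver mets and tumor lines were compared for each factor. The values cover these lines only, since tissue and line cannot be told apart. For FOXA1, distal-anchor loops were 1.33 times as many in liver mets as in tumor (interval 1.29 to 1.36), and other loops 1.19 times (1.18 to 1.20). For HNF4G the ratios were 1.13 (1.09 to 1.17) and 1.01 (1.00 to 1.02). At matched span, the odds that a loop had a distal anchor were higher in liver mets by 1.09 times for FOXA1 (1.06 to 1.12) and 1.14 times for HNF4G (1.10 to 1.18). The difference between factors was not tested.

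The HNF4G change was uneven among partners. Loops between distal anchors were 1.26 times as many in liver mets (1.18 to 1.34), while distal-promoter loops numbered 1555 and 1543, a ratio of 1.01 (0.939 to 1.08). For FOXA1 the 2 ratios were 1.33 (1.26 to 1.39) and 1.28 (1.22 to 1.35). Among distal-anchor loops of the same span, the odds of a promoter at the other end were lower in liver mets, at 0.896 for FOXA1 (0.840 to 0.956) and 0.900 for HNF4G (0.826 to 0.981).

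FOXA1 exceeded HNF4G more in distal-anchor loops than in others. In tumor the ratio was 1.69 (1.64 to 1.75) for distal-anchor loops and 1.34 (1.32 to 1.35) for other loops, and in liver mets it was 1.99 (1.93 to 2.05) and 1.57 (1.56 to 1.59). The odds ratio at matched span was 1.25 (1.21 to 1.29) in tumor and 1.19 (1.16 to 1.23) in liver mets. The distal ratio was above the ratio of other loops in all 11 span ranges of each of the 4 comparisons, and the intervals did not overlap in 10 ranges for FOXA1 against HNF4G in tumor, 7 in liver mets, 4 for HNF4G between lines and 3 for FOXA1 between lines. These comparisons share lists and are not independent of each other.

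**Figure D5:**
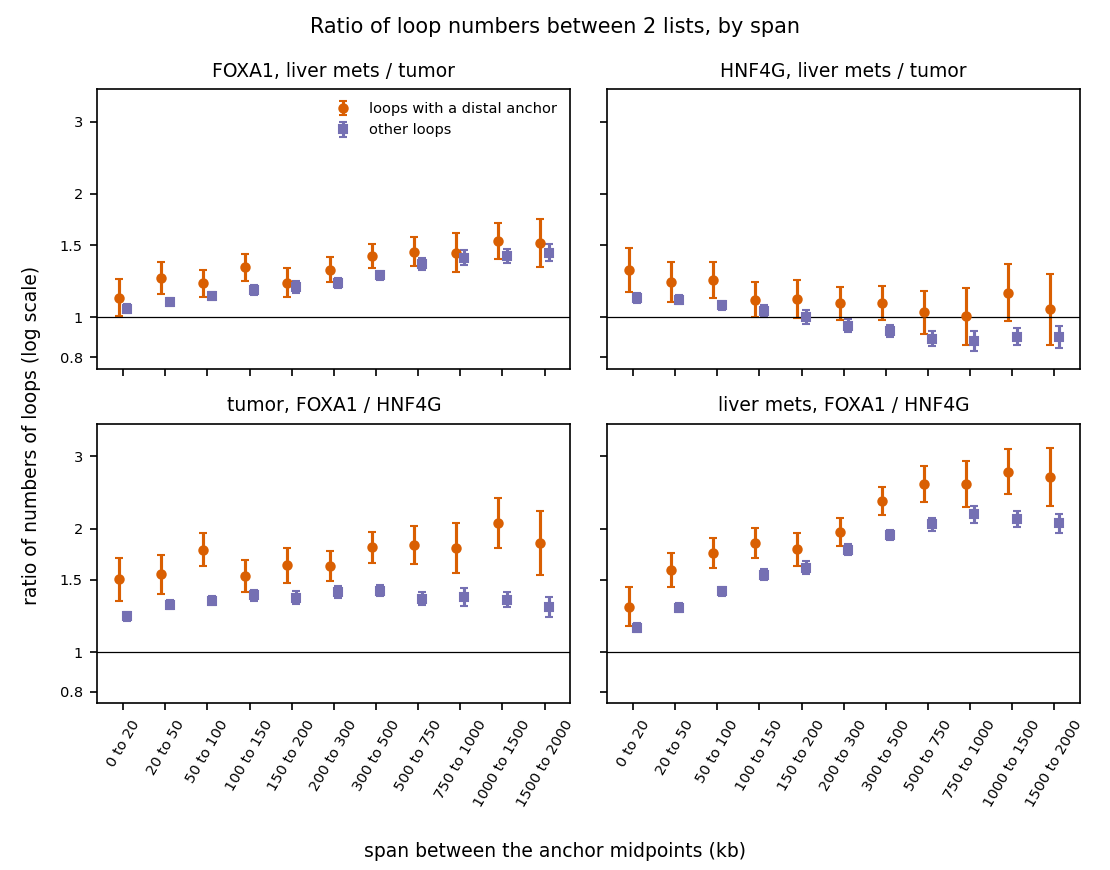
Ratio of the number of loops in 1 list to that in another (y axis, log scale), by span between midpoints in kb (x axis), for loops with a distal anchor (circles) and other loops (squares), with exact 95% intervals for counting error. Each panel is 1 of the 4 comparisons, and circles lie above squares in all 11 ranges of each panel.

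Single distal anchors were then compared between lists. A change was called when 1 list had at least 2 times as many loops, after adding 1 to each count, and at least 6 loops. Of 2650 distal anchors used by a FOXA1 list, 244 (9.21%) were called higher in liver mets, where 7.69% of all anchors were, and 29 (1.09%) were higher in tumor, where 1.82% of all anchors were. For HNF4G, 111 of 2451 (4.53%) were higher in liver mets, against 4.21% of all anchors, and 26 (1.06%) in tumor, against 3.17%. FOXA1 was above HNF4G at 386 of 2568 (15.03%) in tumor, against 13.1% of all anchors, and at 630 of 2618 (24.1%) in liver mets, against 20.1%. HNF4G was above FOXA1 at 8 distal anchors in tumor (0.312%), against 1.06% of all anchors, and at 2 in liver mets (0.0764%), against 0.515%. Distal anchors less often had 6 loops in the larger of the 2 lists. Among the anchors that did, the share higher in liver mets was 18.4% of distal anchors and 12.1% of all anchors for FOXA1, and 17.9% and 9.63% for HNF4G. The share higher with FOXA1 was 40.3% and 24.5% in tumor, and 50.6% and 33.3% in liver mets. In the opposite directions distal anchors had the smaller share, at 2.18% and 2.87% (FOXA1) and 4.2% and 7.26% (HNF4G) for tumor above liver mets, and at 0.834% and 1.99% in tumor and 0.161% and 0.854% in liver mets for HNF4G above FOXA1. An anchor could pass the minimum through the list in which it was high, and distal anchors had fewer loops. The shares among anchors with 6 loops thus cannot show whether distal anchors changed more than others.

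The lists differ in length, which these counts do not correct. When each list was cut to an equal number of its highest-value loops, 155 distal anchors (5.96%) were higher in liver mets for FOXA1, against 4.32% of all anchors, and 58 (2.23%) in tumor, against 4.76%. For HNF4G, 98 (4.01%) were higher in liver mets, against 3.81%, and 31 (1.27%) in tumor, against 3.56%. FOXA1 was higher at 182 (7.21%) in tumor, against 4.98%, and at 270 (10.5%) in liver mets, against 5.83%. HNF4G was higher at 36 (1.43%) in tumor, against 5.14%, and at 60 (2.33%) in liver mets, against 6.8%. With only the loops whose value reached 2, 42 (3.22%) were higher in liver mets for FOXA1, against 2.09% of all anchors, and 1 (0.144%) for HNF4G, against 0.377%. FOXA1 was then higher at 12 (1.24%) in tumor, against 1.18%, and at 62 (5.26%) in liver mets, against 3.85%. At that value 0 distal anchors were called higher in tumor, against 0.147% of all anchors for FOXA1 and 0.607% for HNF4G, and 0 higher with HNF4G, against 0.395% in tumor and 0.086% in liver mets.

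The largest folds were at anchors with few loops. In FOXA1, chr13:5301378-5302989, 558 kb from Klf6, had 8 loops in liver mets and 0 in tumor, and chr13:17197952-17200372, inside Sugct, also had 8 and 0. Neither had a FOXA1 promoter loop. In the other direction chr13:93938361-93940276, inside Arsb, had 1 and 6, and chr2:14494390-14496100, inside Slc39a12, had 1 and 6. With HNF4G, chr8:26793406-26795220 had 7 loops in liver mets and 0 in tumor, with 11 and 10 in the FOXA1 lists. It contacted the nearest gene Zfp703, a corepressor gene, in the 3 lists in which it was used, with values from 1.38 to 5.20. The anchor at chr15:63409372-63412932 had 6 and 0 HNF4G loops, and 6 and 9 FOXA1 loops, with contacts to Myc at 1425 kb in both FOXA1 lists. The Myc contacts had values of 1.87 in liver mets and 1.91 in tumor. Higher in HNF4G tumor were chr1:10602511-10604306, inside the carboxypeptidase gene Cpa6, with 0 in liver mets and 6 in tumor, and chr10:43693246-43695402, with 0 and 6. The latter contacted Cd24a, a surface glycoprotein gene at 115 kb, in HNF4G tumor and both FOXA1 lists. That contact had values of 2.22 in HNF4G tumor and of 0.575 (liver mets) and 1.12 (tumor) with FOXA1.

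Between factors, chr16:93371063-93373976 had 15 loops in FOXA1 tumor and 0 in HNF4G tumor. In FOXA1 tumor it contacted Runx1 at 675 kb, Clic6 at 874 kb and Vps26c at 1154 kb, all with the same value of 1.91. The anchor at chr2:59052107-59055034, inside Ccdc148, had 10 and 0. In liver mets, chr1:71754507-71756599, 101 kb from Fn1, had 10 FOXA1 and 0 HNF4G loops, although HNF4G tumor had 4, and contacted Fn1 in the other 3 lists. The Fn1 contact had values of 0.81 (liver mets) and 0.84 (tumor) with FOXA1 and 1.99 in HNF4G tumor. The anchor at chr13:5228563-5230715 also had 10 and 0, and met Klf6 at 633 kb in both FOXA1 lists, with values of 1.87 (liver mets) and 3.73 (tumor). Higher with HNF4G were chr1:193654219-193657170 near Camk1g, with 1 FOXA1 and 6 HNF4G loops in tumor, and the anchor inside Cpa6, with 2 and 6. In liver mets these were chr14:25254387-25256150, with 4 and 9, which contacted Zmiz1 in the HNF4G lists alone, and chr6:89023446-89024847, with 3 and 7 and with 6 and 14 in tumor, whose contacts with Tpra1 were also in the HNF4G lists alone. The Zmiz1 contact had values of 3.28 (liver mets) and 1.73 (tumor). Those with Tpra1 had 1.48 in liver mets and 1.34 and 2.38 in tumor.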

How the data were processed

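Hi-ChIP reads had been processed with HiC-Pro version 3.1.0, per the submitters' processing notes, and loops had been called with hichipper at default settings on mm10, with DpnII fragments and duplicates removed. How replicates were joined, where the anchors came from and the minimum number of paired reads are not given in the sources used here. Read totals were not used, so the depth behind a loop is unknown beyond the length of its list. Each list deposited by the authors gives a value per loop, read here from the values alone as the −log10 of an adjusted p, which held long runs of ties and a maximum of 20. A score deposited by the authors for display was 10 times the whole part of that value plus 1 and was not used further. Long loops mostly held a tied value below 2. The values depend on list and span, so loops were compared by presence, and the value was used as an alternative.

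Starts of all transcripts of protein-coding genes were taken from GENCODE M21. Distances ran from the anchor edge and spans between midpoints. Odds ratios at matched span were Mantel-Haenszel estimates over ranges up to 2000 kb, with ratios of counts given exact intervals, shares Wilson intervals and differences of shares Newcombe intervals, all at 95%. As each group had 1 list, no test between groups was possible. Loops of 1 anchor are not independent, and the intervals do not cover this. Sequence came from the RefSeq genome of GRCm38.p6.

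Named were the 5 distal anchors with the most loops, the 2 called anchors with the largest fold in each direction of each comparison, the 8 genes reached by the most distal anchors, the 2 most reached genes of each list, and the 3 promoter loops shared by the 4 lists that passed the most genes or had the highest summed value. The members, gene lists and rules were chosen with earlier results of these data known. The calculations were tested on simulated data and made with Python 3.11.15, pandas 2.3.3, NumPy 2.4.6, SciPy 1.17.1 and matplotlib 3.10.9. Sequence of chromosome 18 was not printed.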

Additional observations from a re-analysis of the deposited data

Results flagged for a closer look

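The median span of distal-anchor loops moved in opposite directions between the lines for the 2 factors. For FOXA1 it was 24.6 kb longer in liver mets than in tumor (236 and 212 kb), and for HNF4G the difference was -13.6 kb (182 and 196 kb). Each group had 1 list, so this difference between factors was not tested. The list lengths moved with FOXA1, at 125623 loops in liver mets and 104136 in tumor, and differed less for HNF4G, at 78098 and 76323, and their part in the difference was not tested.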

How the results depend on the processing

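Over 11 alternatives and 81 results, 217 values were labelled as moved, 2 as reversed and 373 as the same. Shares, medians and odds ratios moved when they left their counting interval, but counts had no such interval. With a limit of 50 kb, 200 kb, starts of every biotype, or only loops whose value reached 2, the number of distal anchors was 5234, 1105, 379 and 1451. The promoter share of their distinct loops was 29.1%, 20.8%, 25.2% and 31.6%, and it was 28.4% with a promoter reach of 5 kb and 25.7% when every list was cut to its highest-value loops, the same number in each. The median span, 278 kb as reported, was 251, 344, 298 and 228 kb, and 312 kb with lists of equal length. The share that skipped the nearest gene was 78.9%, 74.5%, 88.9% and 49.2%, and 70.5% with the nearest gene taken among those with a promoter anchor. The odds ratio for the nearest gene was 2.01 with 50 kb, 1.59 with every biotype, 3.44 with values of at least 2 and 1.8 without gaps of 10 or more distal anchors. With every biotype it reversed to 0.898 (liver mets) and 0.994 (tumor) in the HNF4G lists, where both intervals included 1. In the FOXA1 lists it was then 1.37 (liver mets) and 1.08 (tumor), and these intervals included 1 as well. The odds ratio of distal-anchor loops between liver mets and tumor was 1.17 for FOXA1 with every biotype and 1.19 with values of at least 2, and 1.21 for HNF4G with the latter. Between FOXA1 and HNF4G it was 1.35 with 200 kb and 1.48 with values of at least 2 in tumor, and 1.27, 1.24 (every biotype) and 1.47 in liver mets. The causes were not tested. The alternatives on coding transcripts, nearest gene with a promoter anchor, 10 kb span ranges and crowded gaps were added after seeing the data.

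No paired analysis was possible because each group had 1 list with no replicate columns, and leaving out a replicate was not possible for the same reason. The depth behind the lists is unknown, and the median distal anchor had 5 and 4 loops in the FOXA1 lists and 2 in each HNF4G list.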
